A study of Mus musculus with 6 samples.

Results

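The genes of the proteasome were followed through the first 24 h after progesterone in the mouse uterus. Members were all probe sets whose platform annotation gave 1 symbol starting with Psma, Psmb, Psmc, Psmd or Psme, without Psmb8, Psmb9 and Psmb10, and each gene was represented by the probe set with the highest mean over the arrays. The rule found 39 genes among the 8251 genes with a probe set of 1 symbol, of which 36 (among 5914 genes) were analysed. Of the 39, 14 encode subunits of the core particle (7 Psma and 7 Psmb genes) and 23 encode subunits, activators or assembly chaperones of the regulatory particles, 21 of them analysed. The prefix also took in Psmc3ip, a partner protein in homologous recombination, and Psme3ip1, which encodes a binding partner of the activator Psme3. Neither is a subunit, and both were left out of the core and regulatory counts.

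The proteasome is the protease that breaks down most short-lived and damaged proteins of the cytosol and nucleus after they have been tagged with ubiquitin. Its core particle is a barrel in which outer rings of alpha subunits guard the entry and inner rings of beta subunits carry the cutting sites. The regulatory particle caps the barrel: its base holds ATPases that unfold substrates, its lid removes ubiquitin chains, and alternative activators of the Psme family can take its place. The steroid receptors of the uterus are themselves known proteasome substrates.

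Whole uterine horns were taken from 129/SvImJ wildtype female mice, 10 to 16 weeks old, 14 days after ovariectomy, which removes the ovarian source of steroid hormones. Mice received 0.2 mg progesterone in 0.1 mL sesame oil under the skin and were killed 6, 12, 15, 18 or 24 h later. The comparison group was ovariectomized in the same way but not injected, and is called 0 h; no group given oil alone was analysed here. Each group was 1 RNA pool of 8 horns from 4 mice on 1 Affymetrix array, so there were 6 arrays without replicates. The number of arrays limits the precision of every value, and all differences from 0 h rest on the same 0 h array. Values are the deposited log2 expression values, with those under the 40th percentile of the whole table (6.60) set to that floor; genes above the floor on at least 2 arrays were analysed.

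The median log2 level of an array was 7.12 to 7.22. The 0 h array correlated with the progesterone arrays at 0.94 to 0.95 over probe sets, while the progesterone arrays correlated with each other at 0.96 to 0.99. The uterine genes Pgr, Esr1, Hoxa10 and Hoxa11 were all analysed. The summed linear level of 4 skeletal muscle markers stayed at 455 to 483 on the progesterone arrays and at 510 on the 0 h array. Of these, Tnnt3 was under the floor throughout, Mylpf was above it on 2 arrays, Ckm on 3 and Myh4 on 6. The sum thus rests largely on values near the floor.

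Promoter sequences of the 4 core and lid genes farthest above 0 h at 15 h are shown here, because 2 DNA motifs with a textbook link to these genes can be read in them. They are the 250 bases before the annotated start, 5′ to 3′ on the gene's strand, from RefSeq annotation of GRCm38.p6. Psmb3 lies at chr11:97703184-97703433 (plus strand), Psmb5 at chr14:54617996-54618245 (minus strand), Psmb6 at chr11:70525107-70525356 (plus strand) and Psmd14 at chr2:61711444-61711693 (plus strand), each given as the interval printed. Capitals mark the core of the antioxidant response element, TGACNNNGC, the element bound by Nfe2l1 and Nfe2l2, and the CCAAT box, the element bound by the Nfy complex, either of them on either strand.
Psmb3: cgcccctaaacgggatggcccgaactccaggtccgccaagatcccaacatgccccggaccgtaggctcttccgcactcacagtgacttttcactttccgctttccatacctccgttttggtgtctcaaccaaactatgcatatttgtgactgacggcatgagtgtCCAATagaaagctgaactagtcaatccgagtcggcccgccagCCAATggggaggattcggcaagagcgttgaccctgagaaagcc
Psmb5: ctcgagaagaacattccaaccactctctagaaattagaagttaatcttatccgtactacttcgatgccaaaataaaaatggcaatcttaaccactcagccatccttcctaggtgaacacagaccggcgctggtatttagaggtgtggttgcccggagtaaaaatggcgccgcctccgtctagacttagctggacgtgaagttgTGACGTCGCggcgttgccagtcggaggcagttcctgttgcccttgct
Psmb6: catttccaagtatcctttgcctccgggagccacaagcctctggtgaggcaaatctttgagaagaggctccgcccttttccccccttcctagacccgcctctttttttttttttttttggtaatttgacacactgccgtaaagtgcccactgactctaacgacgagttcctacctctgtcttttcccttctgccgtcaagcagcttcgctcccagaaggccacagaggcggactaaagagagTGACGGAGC
Psmd14: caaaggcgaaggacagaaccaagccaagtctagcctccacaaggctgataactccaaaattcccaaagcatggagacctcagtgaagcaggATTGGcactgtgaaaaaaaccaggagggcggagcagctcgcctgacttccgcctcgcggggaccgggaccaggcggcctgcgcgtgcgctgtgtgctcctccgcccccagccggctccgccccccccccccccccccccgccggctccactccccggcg

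The Psmb5 and Psmb6 sequences each hold 1 match to TGACNNNGC, Psmb3 holds 2 CCAAT boxes and Psmd14 holds 1, read as ATTGG on the printed strand. A RefSeq window of 250 bases before to 50 bases after the start was found for 33 of the 39 members. TGACNNNGC stood in the windows of 6 of these 33 genes (18.2%), namely Psmb5, Psmb6, Psmc6, Psmd9, Psmd12 and Psme4, and in 14.0% of 27025 genes. CCAAT stood in 14 of the 33 (42.4%), against 41.1% of all genes. The core of the steroid receptor element, written as ACANNNTGT and identical on both strands, stood in 0 of the 33 and in 7.90% of all genes. These matches describe the letters of the windows only.

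The median proteasome gene lay above its 0 h value on every progesterone array. Over the 36 analysed genes the median log2 difference from 0 h was 0.11, 0.24, 0.38, 0.17 and 0.27 at 6, 12, 15, 18 and 24 h. Over all 7731 analysed probe sets the medians at the same times were -0.05, 0.03, 0.03, -0.04 and 0.00. Thus the members' median was farthest from 0 h at 15 h, while that of the whole array stayed near 0. In a whole-organ RNA pool, a change in the share of a cell type and a change in RNA per cell cannot be told apart.

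No single gene passed the adjusted test. The 5 progesterone arrays were compared with the 0 h array by limma with Benjamini-Hochberg adjustment over all probe sets tested. At an adjusted p under 0.05 it called 0 of the 36 genes higher (0.893% of all probe sets) and 0 lower (1.8%). At an unadjusted p under 0.05, 14 of the 36 were higher (8.09% of all) and 0 lower (10.9%). The 14 were Psma2, Psma4, Psmb3, Psmb5, Psmb6, Psmc2, Psmc5, Psmd1, Psmd6, Psmd12, Psmd13, Psmd14, Psme3 and Psme4, and the lowest adjusted p among them was 0.054, for Psmb5. With 1 array at 0 h, the spread among the 5 progesterone arrays, which differ in time, stood in for replicate error.

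**Figure D1:**
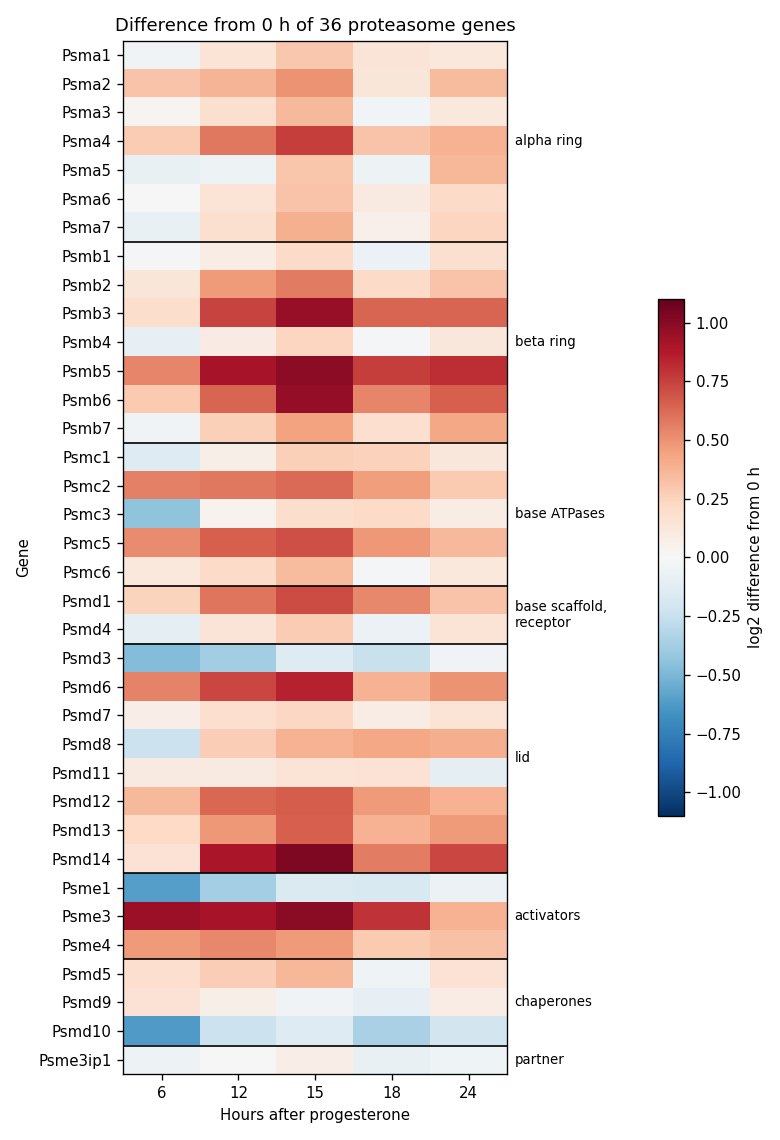
Log2 difference from the 0 h array (colour, red above and blue below 0 h) of the 36 analysed genes, in rows by their place in the particle, at 6, 12, 15, 18 and 24 h after progesterone. The darkest reds are at 15 h for Psmb3, Psmb5, Psmb6, Psmd14 and Psme3, and the strongest blues are at 6 h for Psmd10 and Psme1.

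Counts by gene gave the same picture without a test. Of the 36 genes, 16 lay above 0 h on all 5 progesterone arrays (20.4% of all probe sets) and 3 lay below it on all 5 (27.2%), namely Psmd3, Psmd10 and Psme1. The 16 comprised 6 core genes (Psma2, Psma4, Psmb2, Psmb3, Psmb5 and Psmb6) and 10 regulatory genes. By definition these 16 genes had their lowest value of the 6 arrays at 0 h, while 13 others had it at 6 h (28.2%).

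Size at each time was counted at 1.5-fold. At 6 h, 1 gene (Psme3) was at least 1.5-fold above 0 h (4.52% of all probe sets) and 2 (Psmd10 and Psme1) at least 1.5-fold below it (5.82%). The 12 h array had 9 such genes above 0 h (6.77%) and the 15 h array 12 (8.05%). At 18 h there were 3 (4.44%) and the 24 h array had 4 (4.78%). The 12 genes at 15 h were Psma4, Psmb3, Psmb5, Psmb6, Psmc2, Psmc5, Psmd1, Psmd6, Psmd12, Psmd13, Psmd14 and Psme3. Only Psmd14 reached 2-fold, at 15 h, with a ratio of 2.04 to 0 h; 2.05% of all probe sets did so at that time.

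The 15 h array carried the highest value of 27 of the 36 genes (22.7% of all probe sets). That included 13 of the 14 core genes, all except Psma5, and 13 of the 21 regulatory genes. At 18 h, 33 of the 36 genes were below their 15 h value (67.4%). On all 4 arrays after 6 h, 23 genes stood above their 6 h value (37.1%). The count with a maximum at 15 h was 20 after quantile normalization (13.8% of all) and 22 after centring each array on its median (14.0%).

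The core and regulatory medians both lay above 0 h at every time, and the gap between them was described without a test. The core median lay above 0 h by 0.01, 0.22, 0.42, 0.14 and 0.33 at 6, 12, 15, 18 and 24 h (0.08 at 6 h after quantile normalization). The regulatory median was 0.15, 0.27, 0.37, 0.25 and 0.16 at the same times. The core minus regulatory gap was thus -0.14, -0.05, 0.05, -0.11 and 0.17, with no constant sign. Without the Psme activators and the assembly chaperones the gap was -0.25 at 18 h and 0.04 at 24 h, so its size at these times depended on which regulatory genes were counted. With a floor at the 60th percentile the gap was 0.07, 0.13 and -0.05 at 12, 15 and 18 h, and without a filter the 12 h gap was 0.01.

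**Figure D2:**
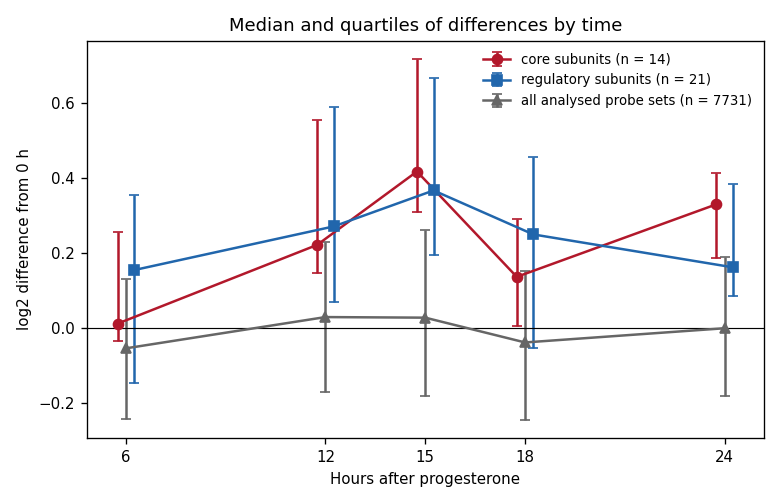
Median log2 difference from 0 h (points) with the lower and upper quartiles over genes or probe sets (bars) against hours after progesterone, for 14 core genes, 21 regulatory genes and all 7731 analysed probe sets. Both proteasome groups are farthest above 0 h at 15 h and their bars overlap at every time.

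The alpha ring, which forms the gated ends of the core barrel, stayed closest to 0 h within the core. Its 7 genes had a median of -0.01 at 6 h and 0.36 at 15 h, and 0.15 as the mean of the 5 progesterone arrays. Psma4 stood highest, with log2 values of 9.87 at 0 h and 10.15, 10.46, 10.64, 10.19 and 10.25 at 6, 12, 15, 18 and 24 h. All 5 progesterone values were above 0 h, the mean difference was 0.46 ± 0.19 (SE; adjusted p 0.241), and the 15 h array was the highest. Psma5 stood lowest, with 9.76 at 0 h and 9.67, 9.70, 10.06, 9.70 and 10.12 at the later times. Its 6, 12 and 18 h values were slightly under 0 h and its 15 and 24 h values over it, and the mean difference was 0.10 ± 0.20 (SE; adjusted p 0.849). The other 5 genes, Psma1, Psma2, Psma3, Psma6 and Psma7, had mean differences of 0.13 to 0.33, the highest for Psma2.

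The beta ring carries the cutting sites, on Psmb5 (chymotrypsin-like), Psmb6 (caspase-like) and Psmb7 (trypsin-like). Its 7 genes had median differences of 0.13, 0.47, 0.58, 0.21 and 0.42 at 6, 12, 15, 18 and 24 h. Psmb5 had log2 values of 8.69 at 0 h and 9.24, 9.60, 9.67, 9.45 and 9.51 at 6, 12, 15, 18 and 24 h. Every progesterone array was above 0 h, and the mean difference of 0.80 ± 0.17 (SE) amounted to 1.74-fold, with an adjusted p of 0.054 in limma. The adjusted p was 0.034 after quantile normalization, 0.036 after median centring and 0.019 without the 6 h array. It was 0.154, 0.123, 0.123 and 0.098 without the 12, 15, 18 or 24 h array, and 0.054 to 0.078 under the other alternatives. None of these alternatives read the further Psmb5 probe set, so they do not bear on the choice of probe set. That probe set did not share this course: its mean difference was -0.15 (adjusted p 0.724) and its lowest value was at 15 h.

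Psmb6 read 9.28 at 0 h and 9.57, 9.92, 10.25, 9.82 and 9.94 at the later times. All 5 values lay above 0 h, with a peak at 15 h and a mean difference of 0.62 ± 0.22 (SE; adjusted p 0.175). Psmb7, in contrast, read 10.18 at 0 h and 10.15, 10.45, 10.62, 10.37 and 10.61. Its 6 h array was level with 0 h and the later arrays were above it, for a mean difference of 0.26 ± 0.18 (SE; adjusted p 0.509).

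Among the beta subunits without a cutting site, Psmb3 stood highest with 10.03 at 0 h and 10.22, 10.78, 10.99, 10.67 and 10.67 at 6, 12, 15, 18 and 24 h. The 12 h and later arrays were well above both 0 and 6 h, and the mean difference was 0.64 ± 0.24 (SE; adjusted p 0.202). Without the 6 h array the adjusted p was 0.041, and without any other progesterone array it was 0.288 to 0.372. Psmb4 stood lowest with 10.83 at 0 h and 10.74, 10.92, 11.07, 10.82 and 10.96. Its progesterone values lay on both sides of 0 h, and the mean difference was 0.07 ± 0.14 (SE; adjusted p 0.837). Psmb2 had a mean difference of 0.34 and Psmb1 of 0.08, while a further Psmb1 probe set gave -0.02.

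**Figure D3:**
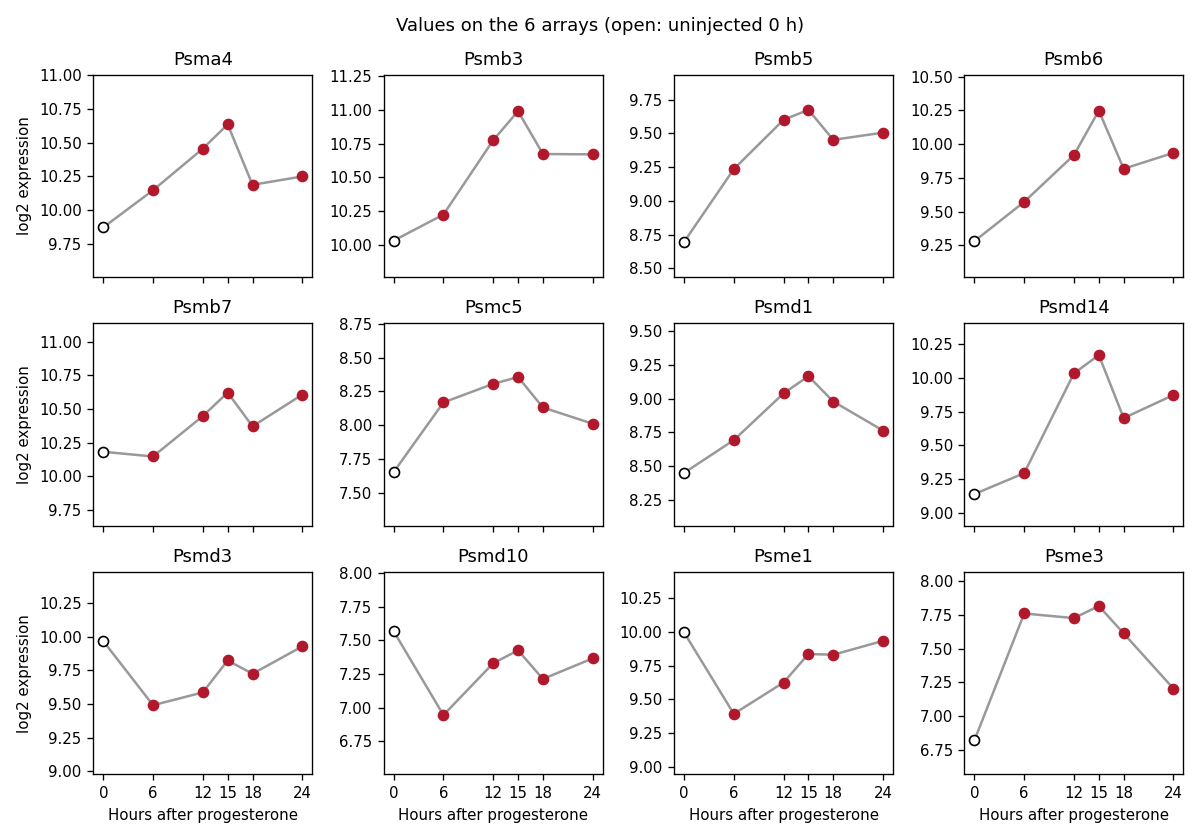
Log2 expression (vertical axes, each with its own range) of 12 members against hours after progesterone, with the uninjected 0 h array as an open point and the 5 progesterone arrays filled. Psma4, the 4 Psmb genes, Psmc5, Psmd1, Psmd14 and Psme3 peak at 15 h, whereas Psmd3, Psmd10 and Psme1 have their lowest value at 6 h.

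The base ATPases, which unfold the substrate and feed it into the core, gave a median of 0.15 for the mean of the 5 progesterone arrays over 5 analysed genes. Psmc4 was at the lower limit of the table (5.39) on all 6 arrays and was not analysed. Psmc5 stood highest, with 7.65 at 0 h and 8.17, 8.31, 8.36, 8.13 and 8.01 at 6, 12, 15, 18 and 24 h. The 6 h array already held most of this difference, which averaged 0.54 ± 0.16 (SE; adjusted p 0.121). Psmc2 was similar, with a mean difference of 0.50 ± 0.15 (SE; adjusted p 0.123). Psmc3 stood lowest, with 10.05 at 0 h and 9.61, 10.09, 10.24, 10.26 and 10.13 at the later times. Its 6 h array was the only one below 0 h, and the mean difference was 0.02 ± 0.23 (SE; adjusted p 0.980), or -0.03 without either the 15 h or the 18 h array. Psmc1 and Psmc6 had mean differences of 0.11 and 0.15. Further Psmc3 probe sets gave 0.19 and 0.00, so the lowest place of Psmc3 depended on the probe set read.

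The scaffold subunit Psmd1 and the ubiquitin receptor Psmd4 differed. Psmd1 read 8.45 at 0 h and 8.69, 9.04, 9.17, 8.98 and 8.76 at 6, 12, 15, 18 and 24 h. All progesterone arrays lay above 0 h, by 0.48 ± 0.19 on average (SE; adjusted p 0.229). Psmd4 read 10.14 at 0 h and 10.03, 10.28, 10.42, 10.07 and 10.29, so that the 6 and 18 h arrays were below 0 h and the others above it. Its mean difference was 0.08 ± 0.16 (SE; adjusted p 0.842). Psmd2, the other scaffold subunit, stayed between 6.08 and 6.48 on the 6 arrays, under the floor, and was not analysed.

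The lid genes ranged more widely than those of either core ring, with a median of 0.34 for the mean of the 5 progesterone arrays over 8 genes. Psmd14, the metalloprotease that cuts ubiquitin chains off the substrate, read 9.14 at 0 h and 9.29, 10.03, 10.17, 9.70 and 9.87 at 6, 12, 15, 18 and 24 h. The 6 h array was close to 0 h and the 4 later arrays stood clearly above both, with a mean difference of 0.68 ± 0.28 (SE; adjusted p 0.251). Psmd3, a structural lid subunit, read 9.97 at 0 h and 9.49, 9.59, 9.82, 9.72 and 9.93. All 5 values lay under 0 h, most of all at 6 h and least at 24 h, for a mean of -0.26 ± 0.17 (SE; adjusted p 0.485). Of the structural subunits between these 2, Psmd6, Psmd12 and Psmd13 had mean differences of 0.60, 0.50 and 0.44, and all 3 were above 0 h on every progesterone array. Psmd7 had 0.14, Psmd8 0.25 and Psmd11 0.08, and Psmd8 was lowest at 6 h (7.15) and highest at 18 h (7.81).

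**Figure D4:**
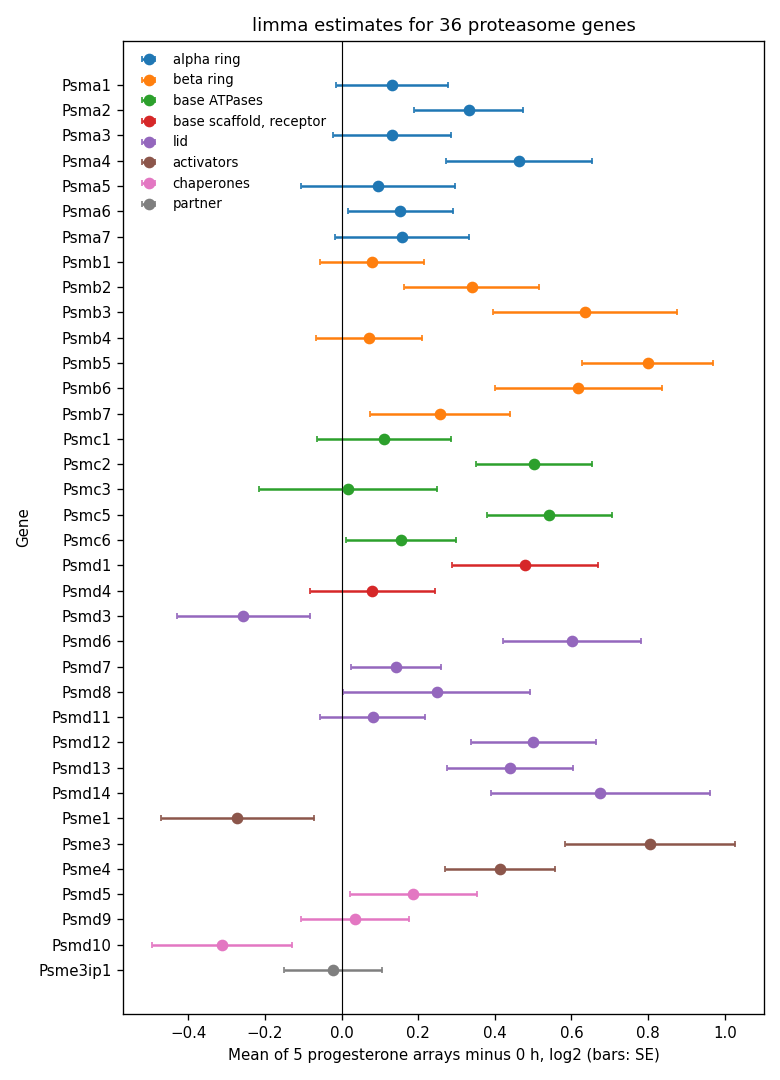
limma estimates of the mean of the 5 progesterone arrays minus the 0 h array (log2, points) with their standard errors (bars) for the 36 analysed genes, coloured by place in the particle. Most points lie right of 0, Psmb5 and Psme3 farthest at 0.80, and 4 lie left of it: Psmd3, Psme1, Psmd10 and Psme3ip1.

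The activators followed separate courses. Psme3 encodes PA28-gamma, the nuclear activator, and read 6.82 at 0 h and 7.76, 7.73, 7.82, 7.61 and 7.20 at 6, 12, 15, 18 and 24 h. Its 6 to 18 h arrays lay close together and above 0 h, with the 24 h array between. The mean difference was 0.80 ± 0.22 (SE; adjusted p 0.099). The adjusted p was 0.046 without the 24 h array and 0.110 to 0.225 without any other progesterone array. The 0 h value is near the floor, and with a floor at the 60th percentile the difference was 0.04. Psme4, the PA200 activator, was above 0 h at all 5 times, by 0.41 ± 0.14 on average (SE; adjusted p 0.172).

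Psme1 encodes PA28-alpha, a part of the interferon-inducible activator, and read 10.00 at 0 h and 9.39, 9.62, 9.84, 9.83 and 9.93 at the later times. All 5 arrays were below 0 h, most of all at 6 h, and the mean difference was -0.27 ± 0.20 (SE; adjusted p 0.524). Its values at 12 to 24 h were each above that at 6 h. A probe set annotated to both Psme2, which encodes the partner PA28-beta, and Psme2b carries 2 symbols and so is no member. It differed from 0 h by -0.58, 0.10, 0.34, -0.00 and 0.25 at 6, 12, 15, 18 and 24 h, below 0 h at 6 h and above it at 12, 15 and 24 h, with a mean of 0.02 ± 0.30 (SE; adjusted p 0.981).

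The immunoproteasome subunits Psmb8, Psmb9 and Psmb10, interferon-inducible replacements for Psmb5, Psmb6 and Psmb7, had mean differences of -0.50, -0.93 and -0.04 (adjusted p 0.140, 0.146 and 0.904). Psmb9 rose over the 5 progesterone arrays, by 1.24 ± 0.22 per 24 h (SE; adjusted p 0.037), after 8.07 at 0 h and 6.79 at 6 h; leaving out any of the 5 arrays ended this call (adjusted p 0.063 to 0.119).

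**Figure D5:**
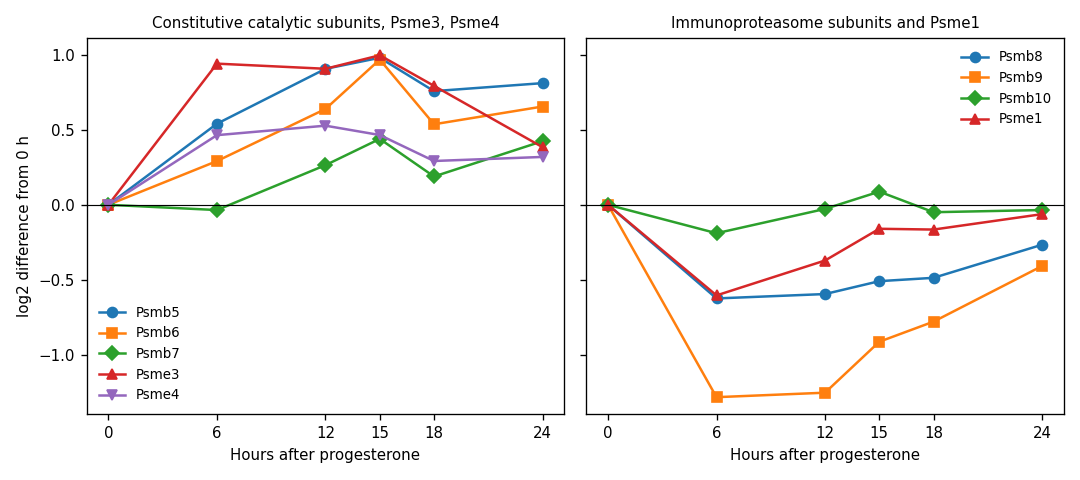
Log2 difference from 0 h against hours after progesterone for the constitutive catalytic subunits Psmb5, Psmb6 and Psmb7 with the activators Psme3 and Psme4 (left) and for the immunoproteasome subunits Psmb8, Psmb9 and Psmb10 with Psme1 (right). Psmb5, Psmb6, Psme3 and Psme4 stay above 0 h at all times, while Psmb8, Psmb9 and Psme1 are lowest at 6 h and remain below 0 h to 24 h.

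Of the 3 chaperones that guide assembly of the base and carry Psmd symbols, Psmd5 and Psmd9 had a mean above 0 h and Psmd10 a mean below it. Psmd5 read 8.94 at 0 h and 9.13, 9.21, 9.31, 8.89 and 9.10, above 0 h except at 18 h, with a mean difference of 0.19 ± 0.17 (SE; adjusted p 0.611). Psmd10, also known as gankyrin, read 7.57 at 0 h and 6.95, 7.33, 7.43, 7.21 and 7.37, and so lay below 0 h on every array, with a mean of -0.31 ± 0.18 (SE; adjusted p 0.408). Psmd9 had a mean difference of 0.04. The partner gene Psme3ip1 hardly moved, with 8.60 at 0 h and 8.54, 8.59, 8.67, 8.52 and 8.55 at the later times (-0.02 ± 0.13, SE; adjusted p 0.948). Psmc3ip was under the floor on all arrays and was not analysed.

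Trends with time were fitted by limma over all 6 arrays and over the 5 progesterone arrays alone. With 6 arrays, 0 of the 36 genes were called higher (0.194% of all probe sets) or lower (0.116%) with time after adjustment. At an unadjusted p under 0.05, 7 had an upward slope (8.41%): Psmb3, Psmb5, Psmb6, Psmb7, Psmd8, Psmd13 and Psmd14. Without the 0 h array, 0 were called higher (1.02%) or lower (0.88%). At an unadjusted p under 0.05, Psmc3, Psmd3, Psmd8 and Psme1 sloped upward (4 genes, 11.6%) and Psme3 downward (1 gene, 9.87%). Psme1 had the lowest adjusted p, 0.088, at 0.73 ± 0.19 per 24 h (SE).

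Genes that assemble the proteasome or work beside it had a median slightly above 0 h. Of 10 listed assembly factors and partners, 9 were analysed, 0 were called against 0 h, and the median of their mean differences was 0.17. Usp14, the deubiquitinase bound to the base, had the highest mean difference and Psmg3, a core assembly chaperone, the lowest (-0.10). Usp14 read 6.63 at 0 h and 7.83, 7.55, 7.15, 6.97 and 6.88 at 6, 12, 15, 18 and 24 h, highest at 6 h and lower at each later time. It fell by 1.38 ± 0.23 per 24 h over the progesterone arrays (SE; adjusted p 0.037), a call that ended without the 6 h (adjusted p 0.200), 12 h (0.073), 15 h (0.061) or 18 h array (0.085) and held without the 24 h array. Pomp, which matures the core particle, had a mean difference of 0.31 ± 0.18 (SE; adjusted p 0.405).

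Genes listed as regulators of proteasome transcription were near or under 0 h. Among them Bach1 was under 0 h at all 5 times, with a mean difference of -0.58 ± 0.15 (SE). Of 13 listed regulators 10 were analysed, 0 were called in any of the 3 fits, and their median was -0.08. Nfe2l1, the factor that raises proteasome genes when the protease is impaired, had a mean difference of 0.08 ± 0.13 (SE; adjusted p 0.805), and Nfe2l2 had -0.30 ± 0.14 (SE; adjusted p 0.282). Nfyc, a subunit of the CCAAT-binding complex, was the highest of the list at 0.09, and the forkhead factor Foxo3 the lowest at -0.69 ± 0.29 (SE; adjusted p 0.245).

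Upstream of the protease, 8 genes listed as shuttles or Vcp partners had a median of 0.17. They ran from -0.24 for Ube4b to 0.36 for Vcp, the ATPase that extracts ubiquitinated proteins. The list also took in Npepl1 (0.23), an aminopeptidase gene that is neither a shuttle nor a Vcp partner. Of the genes listed for ubiquitin and its activation only Uba3 was analysed, at 0.45 (adjusted p 0.309). Uba3 serves a ubiquitin-like protein, so no gene that activates ubiquitin itself was analysed. Of 21 ubiquitin-conjugating enzymes, 16 were analysed, with a median of -0.00 and a range from -0.57 (Ube2b) to 0.55 (Ube2n). None of these genes was called in any of the 3 fits.

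The COP9 signalosome and eIF3, complexes related to the lid by their subunit domains, were set beside it. So was the chaperonin, which is not related in this way. The 9 COP9 signalosome genes had a median of 0.15, from -0.05 for Cops4 to 0.59 for Cops3. The 10 genes of the translation factor eIF3 had a median of -0.00, from -0.36 for Eif3m to 0.35 for Eif3b. The 8 analysed genes of the chaperonin, the ring-shaped folding machine for actin and tubulin, had a median of 0.43, from -0.15 for Cct4 to 0.81 ± 0.19 for Cct3 (SE; adjusted p 0.066). No gene of these 3 lists was called against 0 h, and the chaperonin median lay above that of either proteasome group.

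Markers of cell types differed between the same arrays. Of 10 epithelial markers, 8 had a mean below 0 h and 3 fell in the same limma test in which no proteasome gene was called: Epcam (-1.12 on the log2 scale, adjusted p 0.010), Krt18 (-1.03, adjusted p 0.024) and Ltf (-1.58, adjusted p 0.035). The calls of Krt18 and Ltf were lost without the 12, 15, 18 or 24 h array (adjusted p 0.059 to 0.119), that of Ltf also without a filter (0.073), and that of Epcam held without any of the 5. The endothelial marker Cldn5 also fell (-1.29, adjusted p 0.010, and 0.057 without the 12 h array). Of all probe sets 1.8% were called lower against 0 h, and the median of the mean differences of all analysed probe sets was -0.00. The epithelial markers Cldn3 and Cldn4 had means above 0 h, by 0.43 and 0.13, and Cldn3 lay above it on all 5 progesterone arrays. The 10 epithelial markers together had a summed linear level of 7548 to 8950 on the progesterone arrays and 10799 on the 0 h array. The 5 smooth muscle markers with a value on every array summed to 11711 to 17012 on the progesterone arrays and to 12456 at 0 h. The 6 stromal markers, of which Vim was under the floor throughout, summed to 11260 to 15557 on the progesterone arrays and to 12081 at 0 h. In the limma trend over the 5 progesterone arrays Col1a1, Col1a2 and Lum rose (adjusted p 0.030, 0.016 and 0.016). Their differences from 0 h were 0.51, -0.23 and -1.22 at 6 h and 1.79, 1.37 and 0.22 at 24 h. Dcn and Pdgfra were not called. In the limma trend over 6 arrays Col1a1 rose (adjusted p 0.019) and the epithelial marker Krt7 fell (adjusted p 0.0465). Without the 18 h array, 0 probe sets were called in either trend fit. The 5 endothelial markers, with Pecam1 under the floor, summed to 1435 to 1606 on the progesterone arrays and to 2215 at 0 h. Apart from Cldn5, the analysed endothelial markers stayed near 0 h, with mean differences of -0.06 for Cdh5, -0.07 for Tek and 0.12 for Kdr. The 7 leukocyte markers summed to 2660 to 3019 on the progesterone arrays and to 3564 at 0 h, with Ptprc under the floor and Adgre1 and Itgam at the lower limit throughout. The 3 adipocyte markers, with Fabp4 under the floor throughout, summed to 508 to 839 on the progesterone arrays and to 1404 at 0 h. The part of these shifts in the proteasome values was not tested.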

How the data were processed

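Pooled uterine RNA was hybridized to 6 Affymetrix arrays, 1 for each time, and the sample titles gave groups and times. The authors deposited log2 expression values per probe set; per the labels, RNA was prepared and labelled as Affymetrix recommends. Software and normalization: not given in the sources used here. All arrays share a lower limit of 5.39, at which 21.1% to 22.5% of values lie, which compresses differences of weak genes. Of 12487 probe sets, 65 controls were left out. Values under the 40th percentile (6.60) were set to it, and the 7731 probe sets above it on at least 2 arrays were analysed; no member had a missing value. limma 3.58.1 in R 4.3.3 (lmFit, eBayes with intensity trend, checked on simulated data) compared the 5 progesterone arrays with 0 h (4 residual degrees of freedom), and fitted hours over 6 arrays or over the 5 progesterone arrays (3 degrees of freedom). Benjamini-Hochberg adjustment ran over all probe sets tested, at a threshold of 0.05; "rose" and "fell" mark calls. P-values measure only the spread between these arrays.

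Gene names came from the platform annotation: 10833 probe sets had 1 symbol, 396 several and 1193 none. Values were given in full for members called in a fit, the 4 highest and 4 lowest by mean difference, the catalytic subunits, and the highest and lowest of each class; for pathway lists, for called genes and the extremes. Other genes named were chosen after their values were seen. Members and lists were chosen with earlier results of these data known. The alternatives were floors at the 20th and 60th percentile, no filter, quantile normalization, median centring, eBayes without trend and leaving out each array. A further alternative read the probe set nearest the gene's median, which differed only for Psmb1 and Psmd11.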

Additional observations from a re-analysis of the deposited data

How the results depend on the processing

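The number of members called higher against 0 h was 0 as deposited, 1 after quantile normalization and 1 after median centring (Psmb5 both times). It was 0 to 2 with 1 progesterone array left out: Psmb3 and Psmb5 without the 6 h array, Psme3 without the 24 h array. Called higher were 0.893% of all probe sets as deposited, a share given only for that setting. The other shares count both directions and so are not matched to the member counts. Called in either direction were 2.69% of all probe sets as deposited, 3.01% after quantile normalization and 3.0% after median centring. The share was 7.64% without the 6 h array and 1.17% without the 24 h array. Of the 7 genes with several probe sets, reading the one nearest the gene's median changed the probe set of Psmb1 and Psmd11 only. Psmb5 kept its probe set, so its other probe set was not tried in this way. The regulatory median at 24 h was then 0.29, against 0.16, and the core minus regulatory gap at 24 h was 0.038. Psmd11 was the only regulatory gene changed, and its 24 h difference was 0.36 instead of -0.11. The gap at 12 h, -0.05, was 0.067 with a floor at the 60th percentile and 0.011 without a filter. Without the Psme genes and the assembly chaperones the gap was -0.25 at 18 h and 0.038 at 24 h. The mean difference of Psmc3 turned to -0.028 without the 15 h array and -0.031 without the 18 h array, in a leave-one-out range of -0.031 to 0.13. The trend call of Psmb9 over the progesterone arrays also ended with a floor at the 20th percentile (adjusted p 0.052), after median centring (0.051) and without a filter (0.065), and that of Usp14 without a filter (0.065). Members above 0 h on all progesterone arrays numbered 15 to 21 over the floors, filters and normalizations. The share of all probe sets is given only for the main setting (20.4%). With 1 progesterone array left out the members numbered 16 to 23, the highest without the 6 h array. Leaving out an array can only keep or raise this count, so that range is no check on it. The leave-one-out counts and the alternatives for the maximum at 15 h and for 1.5-fold at 15 h were chosen after seeing the data. No paired analysis was possible because each group has 1 array. Each time rests on 1 pool, all differences share the 0 h array, and weak members (Psmc4, Psmd2, Psmc3ip) were not measured above the floor.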
